A study of Mus musculus with 18 samples.

Results

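Monoamines such as norepinephrine, dopamine and serotonin are removed by transporters that carry them into cells and by enzymes that oxidise or conjugate them. Monoamine oxidase A, on the outer membrane of mitochondria, deaminates serotonin and norepinephrine, and the gut epithelium is known as a site of this first-pass breakdown. Aromatic amino acid decarboxylase works at the other end of the pathway and makes serotonin and dopamine from their precursor amino acids. The 8 genes described here were chosen by symbol from this pathway and were read in a table of 55487 mouse genes. They are Maoa and Maob (the monoamine oxidases), Slc6a2 (the norepinephrine transporter of neurons), Slc22a3 and Slc29a4 (low-affinity monoamine transporters), Slc18a1 (a vesicular monoamine transporter), Sult1a1 (a phenol sulfotransferase) and Ddc (the decarboxylase).

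Expression was measured by RNA sequencing in 18 samples of mouse small intestinal organoids, epithelial cultures grown from the crypts of female wild-type C57BL/6 mice, with no nerve or muscle cells added. The cultures had received 1 µM norepinephrine (5 samples) or its HCl vehicle (4 samples), or 1 µM UK14304, a selective agonist of α2-adrenergic receptors whose name is written here without the comma of the labels (5 samples), or its DMSO vehicle (4 samples), in each case for 4 days. Sample titles carry a number m1 to m5, which was read as the mouse the organoids came from. Numbers m1 to m4 are present in all 4 groups and m5 only with the agonists. The total count per sample was 21.87 to 27.85 M, and 7 of the 18 libraries held more than 1% of their counts on a single ribosomal RNA gene (3 with DMSO vehicle, 1 with HCl vehicle, 2 with norepinephrine and 1 with UK14304). The epithelial markers Epcam and Vil1 had means of 1438 and 1159 CPM (counts scaled to library size after TMM normalization), whereas the summed level of 7 markers of sympathetic and enteric neurons, Th among them, was 1.47 to 2.68 CPM and Dbh, the enzyme that makes norepinephrine, had 0 counts in every library. One library, norepinephrine m4, differed from its UK14304 partner: its deviations from the group mean correlated at -0.21 across genes with those of UK14304 m4. The 4 other same-number pairs of norepinephrine and UK14304 libraries gave 0.0407 to 0.436. Norepinephrine m4 correlated at 0.119 with HCl vehicle m4 and 0.125 with DMSO vehicle m4, near the 0.131 to 0.155 of the other m4 pairs. Its summed level of 6 stem cell markers, 4529 CPM, was the lowest of the 5 norepinephrine libraries, and the part of cell makeup in its results was not tested. Results that rest on this library are given with and without it.

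The 8 genes spanned a wide range of RNA levels, and the oxidases and Ddc were far above the transporters and Sult1a1. In RPKM (CPM per kilobase of exon), which allows genes of different length to be compared, Maoa was highest with a mean of 162 ± 14.5 (SD, n = 18), above 98.6% of the 15247 genes tested. Ddc followed at 41.7 ± 2.72 and Maob at 33.1 ± 1.85. Ddc exceeded Maob in 18 of 18 samples, although the ranges of both genes over the samples overlapped. Slc18a1 lay well below them at 3.05 ± 0.197 RPKM, and no sample of one of these genes reached the range of Slc18a1. The remaining detected genes were near the lower limit of the data: Slc29a4 had 0.474 ± 0.111 RPKM, Sult1a1 0.29 ± 0.0918 and Slc22a3 0.239 ± 0.1. Slc29a4 and Sult1a1 overlapped in their ranges, as did Sult1a1 and Slc22a3, so the ranges over the samples do not separate the last 3 genes. Within a library, Slc29a4 exceeded Sult1a1 in 17 of 18 samples, and Sult1a1 exceeded Slc22a3 in 14 of 18. The ratio of Slc29a4 to Slc22a3 within a library ranged from 1.03 to 4.55.

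**Figure D1:**
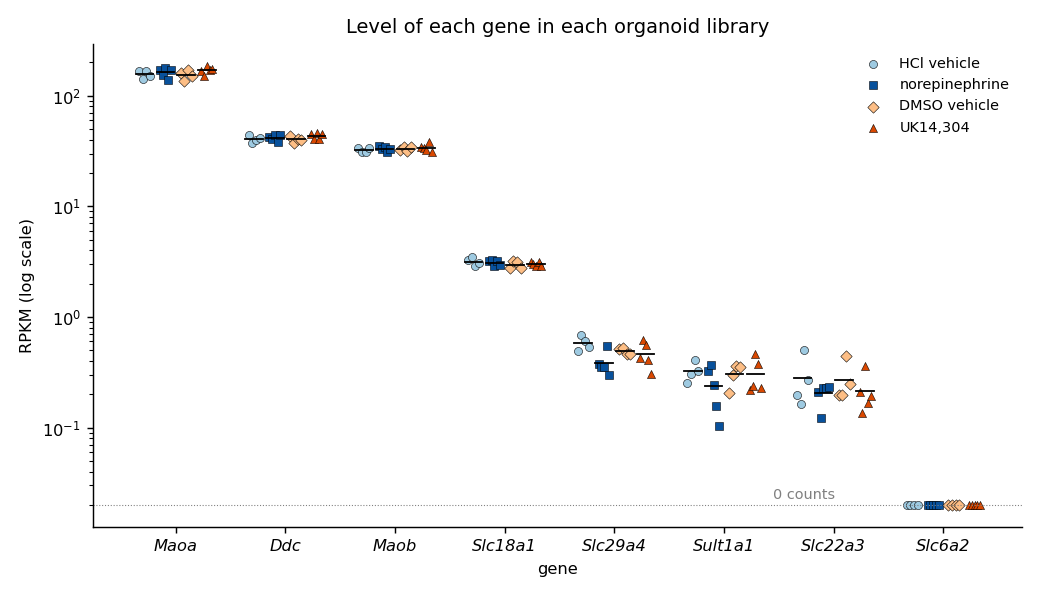
Level of the 8 genes in every library in RPKM on a log axis, with 1 point per library, colour and shape for the group and a line at each group mean. Libraries with 0 counts are drawn on the dotted line, where all 18 points of Slc6a2 lie; Maoa sits above all other genes, and the agonist and vehicle points overlap for each detected gene.

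The monoamine oxidases are neighbouring genes on the X chromosome. Maoa (ENSMUSG00000025037, GRCm38 X:16619698-16687818, plus strand) received 12811 to 18985 counts per library and Maob (ENSMUSG00000040147, X:16709282-16817366, minus strand) received 1874 to 2776. Per kilobase, Maoa exceeded Maob by 4.89 ± 0.496-fold (SD, n = 18), and the ratio within a library ranged from 3.98 to 5.79. Mean ratios were 4.88 with HCl vehicle, 4.89 with norepinephrine, 4.68 with DMSO vehicle and 5.07 with UK14304, and the ranges of the groups overlapped. Maoa was the more abundant oxidase transcript in all 18 libraries.

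Of the plasma membrane transporters, the norepinephrine transporter of neurons was not counted at all. Slc6a2 (8:92960079-93001667) had 0 counts in 18 of 18 libraries, out of 444.9 M counts in all, which allows up to 3 counts or 0.138 CPM in the shallowest library (0.0219 RPKM). Slc29a4, which encodes the plasma membrane monoamine transporter (5:142692512-142722490, 20 to 49 counts), was thus at least 21.6-fold higher per length. Slc22a3, the extraneuronal organic cation transporter (17:12418960-12507704, 12 to 52 counts), was also detected in every library, although 420 bases of its exons are shared with other genes, where reads were not counted. The serotonin transporter Slc6a4, from the same family as Slc6a2 and known in enterocytes, had 719 to 1201 counts and a mean of 8.9 ± 0.837 RPKM. The dopamine transporter Slc6a3 had 313 to 514 counts and a mean of 4.61 ± 0.553 RPKM. These limits and ratios cover counting error only.

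Slc18a1, which loads monoamines into the vesicles of endocrine cells (8:69037711-69089235, 356 to 461 counts), exceeded its relative Slc18a2 by 3.67 ± 0.637-fold per length. Within a library the ratio ranged from 2.49 to 4.88, so Slc18a1 was the more abundant vesicular transporter in every sample. Mean ratios were 4.05 with HCl vehicle, 3.26 with norepinephrine, 4.20 with DMSO vehicle and 3.35 with UK14304. The ranges of each agonist and its vehicle overlapped, and the ratio was not tested. Ddc (11:11814101-11898144) had 3661 to 5482 counts. Sult1a1 (7:126672865-126676432), had 4 to 17 counts, the fewest of the detected members, and 61 bases of its exons are shared with the gene Sgf29.

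Norepinephrine was compared with HCl vehicle to ask whether the cells change the RNA of genes that take up or break down the added amine. With edgeR's quasi-likelihood test, none of the 7 members that passed the filter on low counts differed at an adjusted p under 0.05, and none differed when the m number was added as a block. Of all tested genes, 0% passed without the block (943 genes, 6.18%, at an unadjusted p under 0.05) and 0.105% with it (8.4% unadjusted). Before adjustment 1 member, Slc29a4, was under 0.05 in either fit. No member had agonist and vehicle values that did not overlap, against 1.42% of tested genes for norepinephrine and 3.51% for UK14304.

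Slc29a4 had 1.41, 1.97, 1.74 and 1.54 CPM with HCl vehicle (m1 to m4) and 1.07, 1.01, 1.02, 1.58 and 0.858 CPM with norepinephrine (m1 to m5). The norepinephrine libraries of m1, m2, m3 and m5 lay below all HCl vehicle libraries, and norepinephrine m4 lay among the latter. The log2 fold change was -0.58 ± 0.20 (SE; 95% interval -1.01 to -0.16, unadjusted p = 0.00992, adjusted p = 0.713 by edgeR), and it was -0.47 with the block (adjusted p = 0.567). Without the norepinephrine m4 library and with the block it was -0.65 (95% interval -1.07 to -0.23, adjusted p = 0.0311). UK14304 gave 1.21, 1.76, 1.61, 1.18 and 0.864 CPM against 1.47, 1.5, 1.31 and 1.32 with DMSO vehicle, a log2 fold change of -0.07 (95% interval -0.49 to 0.35, adjusted p = 0.906). The effects of the agonists differed by 0.51 (95% interval -0.09 to 1.10, adjusted p = 1), and by 0.66 ± 0.26 (SE; unadjusted p = 0.0193, adjusted p = 0.846 by edgeR) with the block and without the norepinephrine m4 library, so that no difference between the agonists passed.

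Maoa had 696, 585, 704 and 625 CPM with HCl vehicle (m1 to m4) and 715, 647, 749, 572 and 711 CPM with norepinephrine (m1 to m5). It was higher with norepinephrine in m1, m2 and m3 and lower in m4, and the groups overlapped. The log2 fold change was 0.06 ± 0.08 (SE; 95% interval -0.11 to 0.22, adjusted p = 0.844), and it was -0.04 with the GC trend removed. Maob had 92.9, 85.6, 86.1 and 93.6 CPM with HCl vehicle and 98, 92.5, 95.4, 85.9 and 91.6 with norepinephrine. Its log2 fold change was 0.05 ± 0.05 (SE; 95% interval -0.07 to 0.16, adjusted p = 0.804). Both oxidases and Slc29a4 passed the threshold when the norepinephrine m4 library was left out and the block was kept, with log2 fold changes of 0.11 (95% interval 0.04 to 0.18, adjusted p = 0.0243) for Maoa and 0.14 (0.06 to 0.23, adjusted p = 0.0199) for Maob. In that fit 16.7% of 15161 genes passed (9.14% higher and 7.55% lower), whereas leaving out any other single library with the block gave 10 to 27 genes and no member. In that library Maoa was 0.916-fold, Maob 0.917-fold and Ddc 0.919-fold its HCl vehicle partner. This choice was made after the values had been seen.

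UK14304 was compared with DMSO vehicle as the selective counterpart. None of the 7 tested members passed, without or with the block, against 0.0394% of all tested genes without it (11.2% at an unadjusted p under 0.05) and 1.22% with it (14.8% unadjusted). At an unadjusted p under 0.05 there were 0 members without the block and 2 with it, Maoa and Ddc. Maoa had 674, 571, 706 and 626 CPM with DMSO vehicle and 694, 630, 774, 715 and 729 CPM with UK14304. It was higher with UK14304 in 4 of 4 numbers, by 1.03-fold in m1, 1.1-fold in m2, 1.1-fold in m3 and 1.14-fold in m4, although the groups overlapped. The log2 fold change was 0.14 ± 0.08 (SE; 95% interval -0.03 to 0.30, adjusted p = 0.505), and 0.13 ± 0.05 with the block (0.03 to 0.22, unadjusted p = 0.0143, adjusted p = 0.217). With the norepinephrine m4 library left out it passed with the block at 0.14 (0.08 to 0.20, adjusted p = 0.00675), in a fit where 8.08% of genes passed. That library is in neither group of this comparison but is part of the same fit. With the block the SE for Maoa was 0.046 with that library and 0.031 without it. With the GC trend removed the log2 fold change was 0.04 without the block and 0.03 with it, and with the block and the ribosomal RNA split it was 0.08 (adjusted p = 0.86, 0.654 and 0.711). The effect of UK14304 on Maoa differed from that of norepinephrine by 0.08 (95% interval -0.15 to 0.31, adjusted p = 1).

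Ddc had 195, 167, 179 and 176 CPM with DMSO vehicle and 200.5, 179.8, 205, 181 and 202 CPM with UK14304, and was also higher in 4 of 4 numbers. Its log2 fold change was 0.11 ± 0.06 (SE; 95% interval -0.01 to 0.24, adjusted p = 0.473), and 0.09 (0.01 to 0.18, unadjusted p = 0.0363, adjusted p = 0.304) with the block. With norepinephrine it was higher in 2 and lower in 2 of 4 numbers, with a log2 fold change of 0.04 (95% interval -0.09 to 0.16, adjusted p = 0.869). Slc18a1 had log2 fold changes of -0.04 (95% interval -0.18 to 0.11, adjusted p = 0.886) with norepinephrine and 0.01 (-0.14 to 0.15, adjusted p = 0.976) with UK14304. The interval for Maob with UK14304 was -0.09 to 0.14 on the log2 scale.

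Intervals were wide for the remaining members. Slc22a3 had 0.894, 0.731, 2.26 and 1.22 CPM with HCl vehicle and 0.945, 0.551, 1.02, 1.03 and 1.05 CPM with norepinephrine, a log2 fold change of -0.47 (95% interval -1.17 to 0.24, adjusted p = 0.73). It had 0.89, 0.892, 2.01 and 1.11 CPM with DMSO vehicle and 0.951, 0.61, 1.61, 0.759 and 0.864 CPM with UK14304, a log2 fold change of -0.36 (-1.06 to 0.33, adjusted p = 0.672). The values moved with single libraries, to -0.04 for norepinephrine without HCl vehicle m3 and to -0.002 for UK14304 without DMSO vehicle m3, and over all left-out libraries they ran from -0.64 to -0.04 and from -0.62 to -0.002. In each comparison it was lower with the agonist in 3 of 4 numbers, and m3 held the highest value of both vehicles. Sult1a1 had a log2 fold change of -0.44 (-1.15 to 0.27, adjusted p = 0.736) with norepinephrine and 0.01 (-0.67 to 0.69, adjusted p = 0.995) with UK14304. Neither a change within these intervals nor its absence was shown, and the intervals are not limits of detection.

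**Figure D2:**
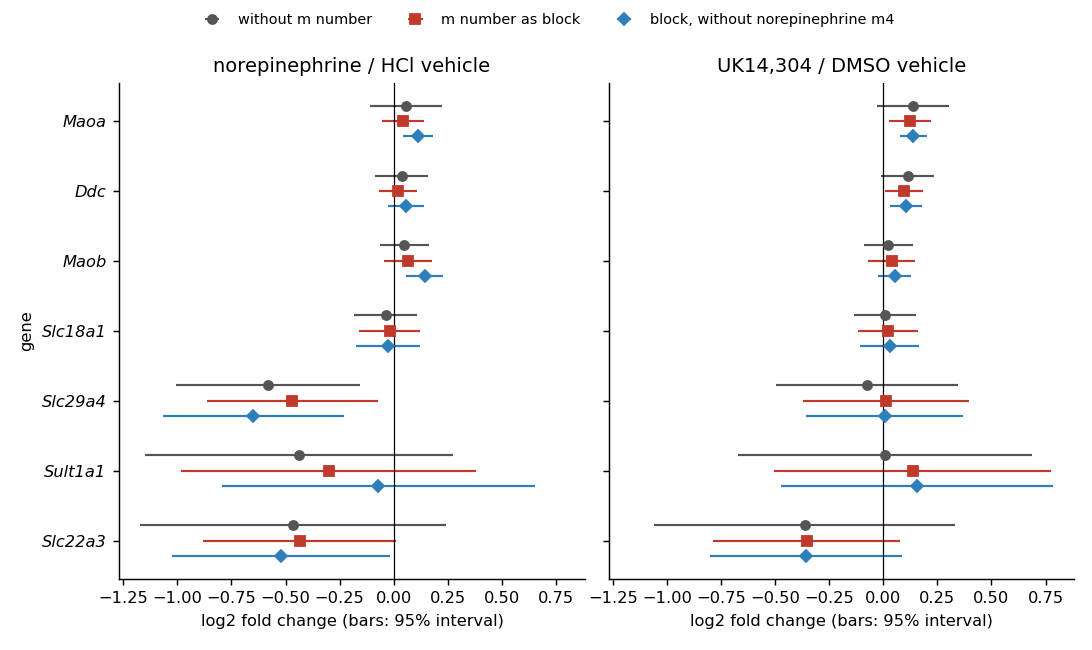
Log2 fold changes (x axis) of the 7 tested genes (y axis) for each agonist against its own vehicle, from edgeR without the m number, with it as a block, and with the block but without the norepinephrine m4 library; bars are 95% intervals. The intervals of Maoa, Maob, Ddc and Slc18a1 are narrow and near 0, those of Slc22a3, Slc29a4 and Sult1a1 are wide, and of the fits drawn only that without the norepinephrine m4 library put Maoa, Maob and Slc29a4 past the threshold for norepinephrine and Maoa for UK14304.

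The agonists themselves were also set against each other, since both were given at 1 µM for 4 days, each relative to its own vehicle. None of the 7 members differed between the agonists (smallest unadjusted p = 0.0928, for Slc29a4), and 0% of tested genes passed (230 genes, 1.51%, at an unadjusted p under 0.05); with the block and without the norepinephrine m4 library 0.0066% did, none of them a member. Intervals of the difference on the log2 scale were -0.19 to 0.14 for Maob, -0.10 to 0.25 for Ddc and -0.16 to 0.25 for Slc18a1, and reached 1.10 for Slc22a3 and 1.43 for Sult1a1. The vehicles, compared in the same way as a background, differed by log2 fold changes between -0.05 and 0.25 for the members and passed for none of them (0% of tested genes, 1.27% at an unadjusted p under 0.05). The largest, 0.25, was that of Slc29a4.

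Several members differed between the m numbers. In a test of the m number in the model with the groups, 3 of 7 members passed, which were Maoa, Slc22a3 and Ddc, and so did 13.8% of all tested genes. In bulk samples, a different number of cells of a type and a different amount of RNA per cell cannot be told apart. Mean Maoa levels were 694.5 ± 16.7 CPM in m1, 608 ± 36.1 in m2, 733 ± 34.3 in m3, 634 ± 59.1 in m4 (SD, n = 4 each) and 719.8 ± 13 in m5 (n = 2), with fitted levels spread over 0.27 on the log2 scale (adjusted p = 0.00234). Maoa was highest in m3 in all 4 groups, and lowest in m2 in 3 groups and in m4 with norepinephrine. Ddc followed with 195 ± 4.79, 174 ± 7.36, 189 ± 13.4, 178 ± 6.57 and 199 ± 3.25 CPM in m1 to m5, a spread of 0.17 (adjusted p = 0.0309). That call was lost in 5 of the 18 fits that left out 1 library (HCl vehicle m1 or m2, DMSO vehicle m1 or m2, or UK14304 m2), with a highest adjusted p of 0.0883. Slc22a3 varied most, with 1.72 ± 0.541 CPM in m3 against 0.696 ± 0.151 in m2, and its fitted levels were spread over 1.29 on the log2 scale (adjusted p = 0.00283). The other 4 members did not pass, with spreads of 0.13 for Maob (adjusted p = 0.602, and 0.21 with adjusted p = 0.0227 without norepinephrine m4), 0.16 for Slc18a1 (0.591), 0.73 for Slc29a4 (0.379) and 1.11 for Sult1a1 (0.469).

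**Figure D3:**
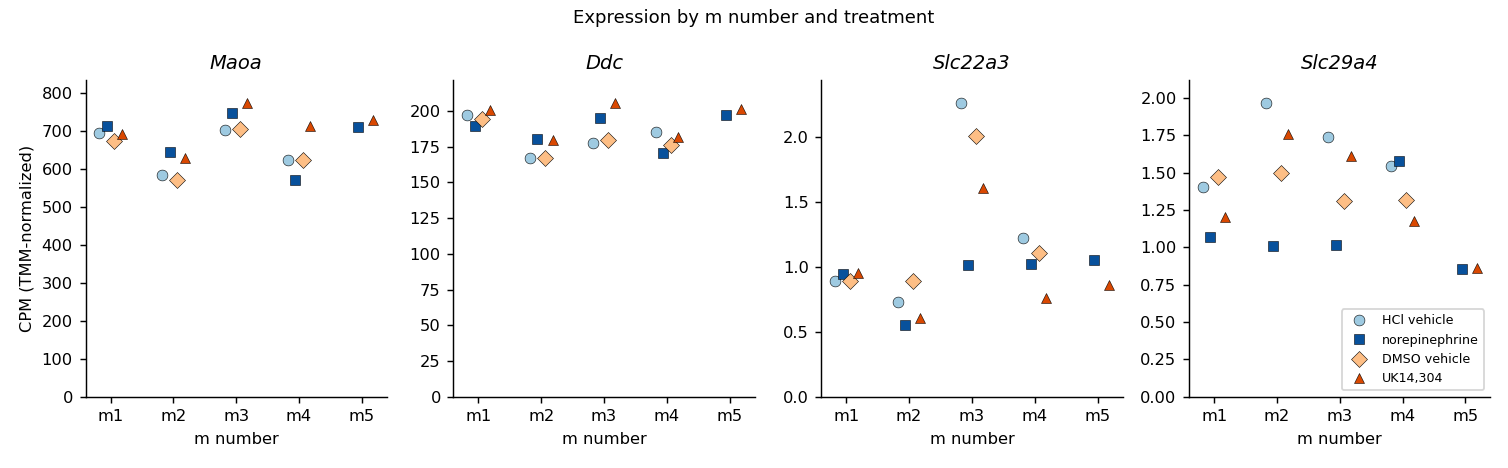
TMM-normalized CPM (y axis, from 0) of Maoa, Ddc, Slc22a3 and Slc29a4 by m number (x axis), with 1 point per library and colour and shape for the group. On the mean of each m number, Maoa and Ddc are lowest in m2 and m4 and Slc22a3 is highest in m3, though not in every group. Slc29a4 shows the low norepinephrine values of m1, m2, m3 and m5.

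Cell type markers also differed between the m numbers, and their part in these results was not tested. The summed level of 6 stem cell markers was highest in m3 (mean 6230 CPM) and lowest in m2 (4461 CPM), as for Maoa. That of 4 enterocyte markers ran from 6715 CPM in m3 to 9807 CPM in m2, and that of 5 enteroendocrine markers from 342 CPM in m3 to 464 CPM in m2. As a description over the 18 samples, which share m numbers and dose groups, log2 Maoa correlated with the stem cell sum at r = 0.897 (Spearman's rho = 0.917, r = 0.845 without the 2 samples farthest from the median, r = 0.882 after removing the mean of each m number). Most of that stem cell sum (mean 5268 CPM) came from Olfm4 (mean 3609 CPM) and Slc12a2 (mean 1234 CPM). With the enterocyte sum r was -0.742 (rho = -0.833, -0.713 without the 2 farthest samples and -0.752 within m numbers). For Maoa it was -0.853 with the enteroendocrine sum, and -0.741, 0.378 and 0.103 with sums of goblet, Paneth and tuft cell markers. After removing the mean of each m number these were -0.592, -0.577, -0.617 and 0.511, so the sign for the Paneth sum turned. Ddc correlated less with the stem cell sum, at r = 0.596 (rho = 0.564, 0.377 and 0.534). Over whole groups the stem cell sum overlapped, with 4352 to 5472 CPM for HCl vehicle and 4529 to 6271 for norepinephrine. It was 3933 to 6334 CPM for DMSO vehicle and 4820 to 6843 for UK14304. These ranges do not compare libraries of the same m number. Between libraries of the same number, the sum rose with UK14304 in m1, m2, m3 and m4. With norepinephrine it rose in m1, m2 and m3 and fell in m4. In m3 it rose from 5472 to 6271 CPM with norepinephrine and from 6334 to 6843 CPM with UK14304. In m2 it rose from 3933 to 4820 CPM with UK14304, and with norepinephrine it rose from 4352 CPM. In m1, DMSO vehicle had the lowest value, 4791 CPM, and norepinephrine the highest, 5576 CPM. In m4, norepinephrine had the lowest value, 4529 CPM, and UK14304 the highest, 5993 CPM. A shift of this sum with the agonists was not tested.

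The genes whose profile over the 18 samples was most like that of Maoa were Cyp2j6 (r = 0.958), Gimd1 (0.935) and Shcbp1 (0.933). For Ddc they were Ces1g (r = 0.91), Aldh1a1 (0.896) and Fabp2 (0.867), and Maoa and Ddc correlated with each other at 0.809. Maob was most like Dtx3l (r = 0.856), Trim44 (0.807) and Jaml (0.794), and its correlation with Maoa was 0.118. Slc22a3 was most like Bex3 (0.905), Fgfrl1 (0.9) and Shisa2 (0.899), and Slc29a4 most like Alg3 (0.852), Ppif (0.831) and Plxna1 (0.83). For Slc18a1 and Sult1a1 the highest coefficients were 0.764 (Gla) and 0.734 (Zfp941). These coefficients are the largest among 15247 genes and are given as a description.

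Other genes of the pathway place the members in context. Of a list of 45 genes for synthesis and cofactors, other transporters, and other breakdown and conjugation, 37 had counts in every library and were tested. Synthesis enzymes for catecholamines were scarce: tyrosine hydroxylase (Th) had 3 to 23 counts and dopamine beta-hydroxylase (Dbh) had 0 in all 18 libraries. Tph1, the tryptophan hydroxylase of enterochromaffin cells, had 230 to 370 counts and 2 ± 0.285 RPKM. Enzymes of the cofactor tetrahydrobiopterin were higher, with 78.8 ± 4.53 RPKM for Pcbd1 and 61.1 ± 2.25 for Qdpr, which recycle it, and 16 ± 1.36 for Spr, which makes it. On the mean over samples, genes of the breakdown list lay above Maoa, with 212 ± 29 RPKM for Aldh1a1 and 198 ± 9.9 for Akr1a1, which act on the aldehydes that oxidases produce or on related aldehydes, and 210 ± 71.6 for Papss2, which makes the sulfate donor of the sulfotransferases. In the 4 libraries of m3, however, Papss2 (84.6 to 129 RPKM) lay below Maoa (169 to 186 RPKM), and it lay above Maoa in the other 14. The histamine-degrading amine oxidase Aoc1 had 189 ± 16.8 RPKM. Among other sulfotransferases, Sult1d1 and Sult1b1 had 80.8 ± 11.5 and 56.6 ± 6.73 RPKM, far above the 0.29 RPKM of Sult1a1, whereas Sult1e1 had 0 counts in every library. The amino acid transporter subunit Slc3a2 had 39.2 ± 2.24 RPKM and Slc7a8 22.6 ± 2.45.

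**Figure D4:**
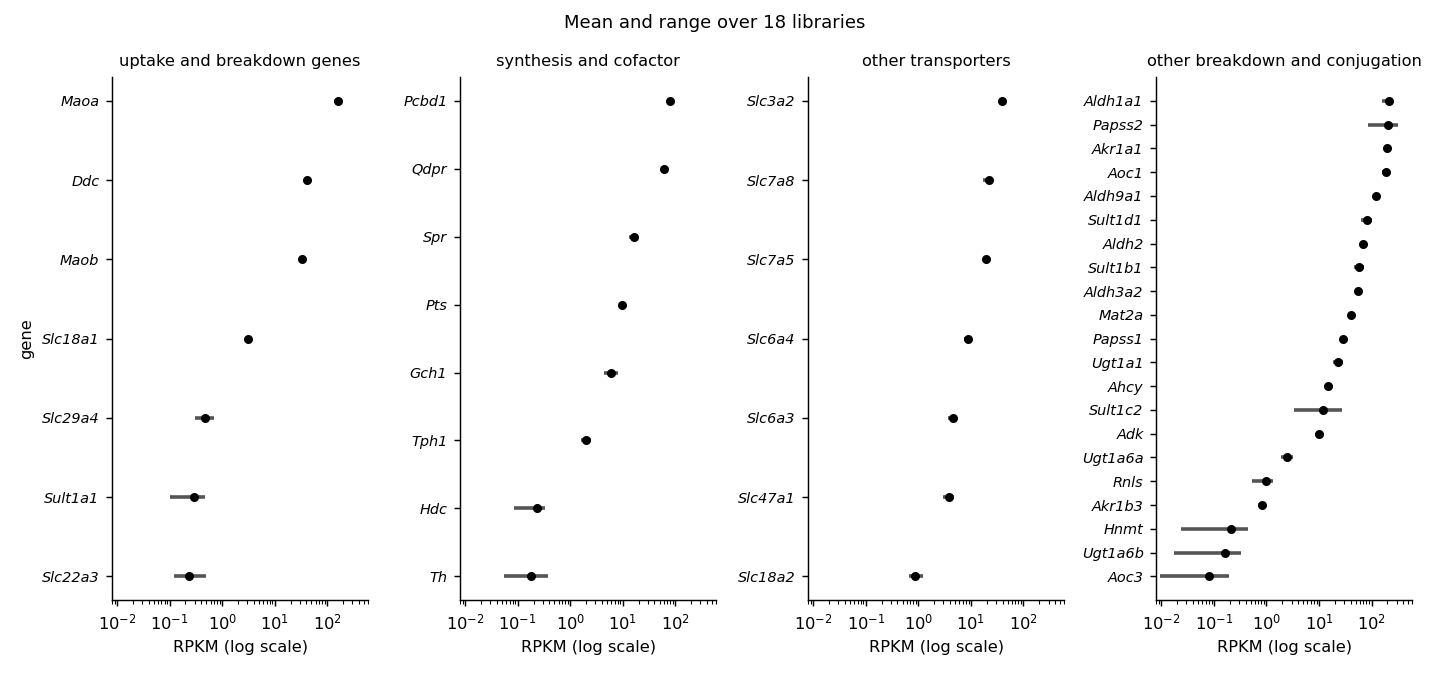
Mean (point) and range (line) over 18 libraries of the level in RPKM on a log axis, for the 7 detected uptake and breakdown genes and for genes of the wider list that were counted in every library. The means of Aldh1a1, Papss2, Akr1a1 and Aoc1 lie above that of Maoa, with a wide range for Papss2, and Th, Hdc, Hnmt, Ugt1a6b and Aoc3 lie at the level of the low transporters or below.

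None of the 37 list genes passed for either agonist without the block. The median log2 fold change of the list was -0.01 for norepinephrine and -0.01 for UK14304, beside -0.01 and 0 over all tested genes. With the m number as a block, 3 passed for UK14304 (1 higher and 2 lower, against 0.177% of genes higher and 1.04% lower) and 0 for norepinephrine. Gch1, the first enzyme of tetrahydrobiopterin synthesis, had 41.4, 48.4, 32.8 and 41.2 CPM with DMSO vehicle and 35.2, 42.1, 27.8 and 31.5 CPM with UK14304 in m1 to m4. It was lower in 4 of 4 numbers, with a log2 fold change of -0.26 ± 0.05 (SE; adjusted p = 0.0126 with the block and 0.456 without). With norepinephrine it was -0.23 (adjusted p = 0.195 with the block), also lower in 4 of 4 numbers. It passed for norepinephrine with the block when the norepinephrine m4 library was left out (-0.24, adjusted p = 0.0045). The agonist effects differed by -0.04 (95% interval -0.19 to 0.11). Sult1c2, another cytosolic sulfotransferase, fell by 0.53 ± 0.07 on the log2 scale (adjusted p = 0.000623 with the block and 0.724 without), from 19.7, 48, 10.6 and 25.4 CPM to 13, 38.8, 6.07 and 16.5 CPM. With norepinephrine its log2 fold change was -0.15 (adjusted p = 0.592 with the block), and the difference between the agonists was -0.38 (95% interval -0.59 to -0.18, unadjusted p = 0.000808, adjusted p = 1).

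Slc7a8, a neutral amino acid transporter, rose with UK14304 by 0.20 ± 0.04 on the log2 scale (adjusted p = 0.0238 with the block and 0.414 without), from 117, 94.8, 107 and 104 CPM to 130, 107, 133 and 116 CPM. It was higher in 4 of 4 numbers. Gch1 kept its call in 14 and Slc7a8 in 13 of 18 fits with the block that left out 1 library, and Sult1c2 in 18. Gch1 lost it without DMSO vehicle m1, m2 or m4 or UK14304 m3 (highest adjusted p = 0.0769), and Slc7a8 without DMSO vehicle m2, m3 or m4 or UK14304 m2 or m3 (highest adjusted p = 0.108). When libraries above 1% ribosomal RNA were also given a term beside the block, Gch1 (-0.24, adjusted p = 0.0875) and Slc7a8 (0.20, adjusted p = 0.0892) did not pass and Sult1c2 did (-0.55, adjusted p = 0.00504); 3 of 4 DMSO vehicle and 1 of 5 UK14304 libraries were above 1%. Slc18a2, the other vesicular transporter, had log2 fold changes of 0.31 (unadjusted p = 0.0416, adjusted p = 0.713) for norepinephrine and 0.36 (unadjusted p = 0.0188, adjusted p = 0.398) for UK14304 and did not pass.

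**Figure D5:**
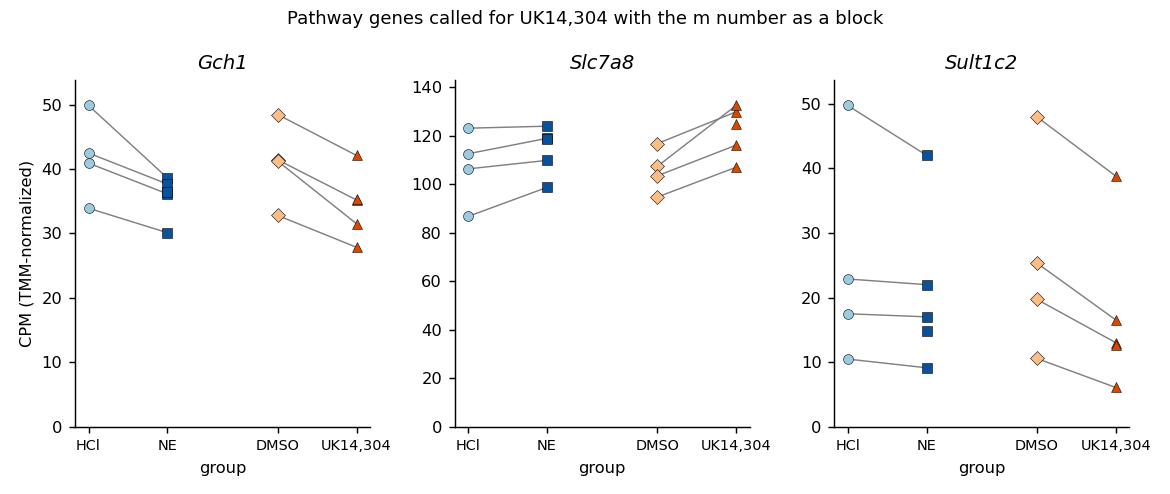
TMM-normalized CPM (y axis, from 0) of Gch1, Slc7a8 and Sult1c2 in the 4 groups (x axis), 1 point per library with lines joining libraries of the same m number. All 4 lines from DMSO vehicle to UK14304 fall for Gch1 and Sult1c2 and rise for Slc7a8, while Sult1c2 in m2 stays above all other numbers in every group.

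In the test of the m number 15 of 37 list genes passed, beside 13.8% of all tested genes, and 22 did not. Sult1c2 had 44.7 ± 5.1 CPM in m2 and 9.06 ± 2.1 CPM in m3 (adjusted p = 1.15e-12), and Papss2 had 1132 ± 34 CPM in m2 and 377 ± 76.1 CPM in m3 (adjusted p = 2.76e-08), the opposite order to Maoa and Slc22a3. Transporters that passed were Slc6a4, Slc6a3, Slc47a1 and Slc7a8, and Tph1 and Gch1 passed among the synthesis genes.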

How the data were processed

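Organoid RNA was measured in 18 samples of 4 groups. The authors mapped 50 bp reads to GRCm38 with STAR 2.7.3 and counted them on exons; per the file headers, featureCounts 2.0.1 with Ensembl 102 was used, whereas the methods name Subread 1.6.4. The command counted uniquely mapped reads on single genes without strand, so reads of overlapping and antisense genes cannot be told apart. The deposited values are raw counts for 55487 genes with exon length; all 18 sample columns were used. Symbols were found for 55141 genes.

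The counts were tested with edgeR 4.0.16 in R 4.3.3 (TMM, filterByExpr by group, robust quasi-likelihood fit of all 18 samples, Benjamini-Hochberg over 15247 genes, threshold 0.05), checked on simulated data. Alternatives were DESeq2 1.42.0, other scaling and filters, a lowess removal of the GC trend, the m number as a block, the ribosomal RNA split, and left-out samples. Every agonist and vehicle pair of the same m number correlated in its deviations from the group means (0.119 to 0.431 for norepinephrine and HCl vehicle, 0.155 to 0.52 for UK14304 and DMSO vehicle); the pairing comes from the titles, which do not spell out what m means. No source says that samples of a group came from separate cultures beyond this number. Log2 CPM used a prior count of 2.

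The members, lists, tests and the ribosomal RNA split were chosen with earlier results of these data known; no p-value is adjusted over a list alone. Named were all members, list genes that passed for either agonist without or with the block, the 3 list genes of highest RPKM in each group (1 of which is not reported here), and the 3 tested genes most correlated with each member; others (Aoc1, Hnmt, Slc18a2, Slc6a3, Slc6a4, Sult1b1, Sult1d1, Th, Tph1 and those at 0) were named after their values were seen. The limit for 0 counts is 3 counts per library.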

Additional observations from a re-analysis of the deposited data

Results flagged for a closer look

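Slc22a3 in norepinephrine m2 stood apart from the other 4 norepinephrine libraries. Its level was 0.551 CPM (12 counts), and the next value was 0.945 CPM in a group that reached 1.05 CPM, a gap of 0.785 of the group's range against Dixon's critical value of 0.71 for 5 samples. It was the only 1 of 28 gene and group combinations checked that did so, and chance flags about 1 in 20 groups. Organoids of m2 had the lowest Slc22a3 level with HCl vehicle and with UK14304 as well.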

How the results depend on the processing

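Gene counts that passed moved with the design more than the members did. For UK14304, against 6 genes, 22 passed with no filter on low counts, 20 with the GC trend removed, 1 with the other agonist and vehicle left out of the fit, 47 by DESeq2 and 126 with both vehicles pooled. With the m number as a replicate block 186 passed, and with the block 626 with the GC trend removed, 525 with the other pair left out, 78 with the ribosomal RNA split, 264 by DESeq2, 585 without m4 and 174 without m5. For norepinephrine, against 0 genes, the block gave 16, and with it 31 passed with the GC trend removed, 15 with the other pair left out, 16 with the ribosomal RNA split, 29 by DESeq2, 2300 without m4 and 16 without m5. For the difference between the agonists 1 passed by DESeq2 with the block, 2 with pooled vehicles and 12 without m4 with the block. For the m number 3701 passed with the GC trend removed.

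Leaving out 1 library in turn, without or with the block, gave 0 to 2529 genes for norepinephrine, 2 to 1225 for UK14304, 0 to 1 for their difference and 1503 to 3581 for the m number. The highest counts for both agonists came without norepinephrine m4. The fits with the block that each left out 1 library were chosen after the data had been seen.

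Beyond the calls given with the results, Maob passed for norepinephrine (0.12) and Maoa for UK14304 (0.11) without m4 and with the block, Maoa passed for UK14304 (0.14) with the other pair left out and the block, and Maob passed for the m number with the GC trend removed. Gch1 passed for norepinephrine with the block and the GC trend removed (-0.25, adjusted p = 0.0432) and with the block without m4 (-0.23, adjusted p = 0.00278). The block changed no call of a member.

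The sign turned under some settings for values that did not pass. Slc29a4 with UK14304 was 0.013 with the block, 0.015 with the GC trend removed, 0.098 with both, 0.041 with the other pair left out and the block, 0.091 with the ribosomal RNA split, 0.015 by DESeq2 with the block, 0.045 without m4 with the block, 0.049 without m5 and 0.043 without m5 with the block. With the GC trend removed, Maoa with norepinephrine was -0.042 (-0.048 with the block), and with UK14304 Maob was -0.021 (-0.0016 with the block), Slc18a1 -0.00068 and Sult1a1 -0.0077. Sult1a1 with UK14304 was -0.11 with the ribosomal RNA split and -0.031 with pooled vehicles. With pooled vehicles Slc18a1 was 0.013 for norepinephrine, -0.034 for UK14304 and -0.048 for their difference, and Maob was 0.019 for their difference. Slc18a1 with UK14304 was -0.023 without m4 and with the block, and the difference for Maob was 0.0032 without m5 and 0.00083 with the block as well. The causes were not tested.

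Over the left-out libraries the ranges were -0.20 to 0.11 for Slc29a4, -0.024 to 0.097 for Slc18a1, -0.18 to 0.30 for Sult1a1 and -0.023 to 0.070 for Maob with UK14304. With norepinephrine they were -0.077 to 0.017 for Slc18a1, -0.0079 to 0.087 for Ddc and -0.67 to 0.30 for Sult1c2. For the difference they were -0.32 to 0.46 for Slc22a3, -0.0046 to 0.11 for Slc18a1 and -0.090 to 0.0031 for Maob. Counting error is part of the spread of Sult1a1 (4 to 17 counts), Slc22a3 (12 to 52) and Slc29a4 (20 to 49), and the SE of Slc22a3 with norepinephrine was 0.34 without and 0.21 with the block.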
